A study of Mus musculus with 12 samples.

Results

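The genes described here encode the Fanconi anaemia core complex (Fanca, Fancb, Fancc, Fance, Fancf, Fancg, Fancl and Fancm) and the ID complex (Fanci and Fancd2). They were taken by gene symbol, 8 for the core complex and 2 for the ID complex, and all 10 were found among the 45792 genes of the expression tables. RNA was sequenced from primary neural stem cells (NSCs) cultured from the forebrain of newborn mice in serum-free medium with EGF and FGF. Untreated wild-type (WT) NSCs, untreated NSCs lacking Ncf1 (Ncf1-/-) and Ncf1-/- NSCs given mouse recombinant Igfbp2, an extracellular binding protein of insulin-like growth factors, gave 4 libraries each. Ncf1 encodes the p47phox subunit of the NADPH oxidase Nox2, a source of superoxide. The knockout is constitutive, so both Ncf1-/- groups lack the gene in every cell type, and the cultures hold any cell that grew from the dissected forebrain. The labels give Igfbp2 at 100 ng/ml, added 48 h after plating with RNA taken 48 h later, whereas the study's methods state a lower dose. The libraries carry the numbers of their labels: 1 to 4 for untreated Ncf1-/-, 5 to 8 for treated Ncf1-/- and 9 to 12 for WT.

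The Fanconi anaemia pathway repairs DNA interstrand crosslinks, lesions that block replication forks. The core complex is a ubiquitin ligase that attaches a single ubiquitin to FANCD2 and FANCI, and the modified ID complex then clamps onto DNA and directs nucleases, translesion polymerases and homologous recombination to the lesion. Many genes of the pathway are transcribed mainly in cells that are replicating DNA. Inherited loss of the pathway causes bone marrow failure and cancer, often with a small head, and mice lacking members of the complex have fewer neural stem cells.

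The libraries held 18201622 to 34086554 expected counts, with a median of 20932987. The sequencing depth was highest in WT library 11, and the 10 genes were counted from 15 times (Fancb in WT library 12) to 1091 times (Fanci in untreated Ncf1-/- library 4). Ncf1 itself had 1 to 7 counts in any library, too few to check the genotype. Before the results, 3 features of the libraries bear on them. Summed over Ddx3y, Eif2s3y, Kdm5d and Uty, Y-linked transcripts stood at 105 to 116 CPM, counts per library size adjusted by TMM factors, in untreated Ncf1-/- cells and at 7.79 to 9.18 CPM in treated Ncf1-/- cells, although the study describes treated and untreated cultures as coming from the same animals. WT library 12 had 6.46 CPM of these transcripts against a WT median of 109, and its Xist level was 291 CPM against 3.87 to 5.22 in the other WT libraries. Xist stood at 72.3 to 87.8 CPM in untreated and 166 to 275 CPM in treated Ncf1-/- cells, so Igfbp2 treatment and the sex-linked transcripts cannot be told apart. A second sample sheet in the study's software lists WT library 12 as apocynin-treated, and the label, untreated, was followed. Oligodendrocyte markers (10 of 10 tested) summed to 3171 to 11392 CPM in WT against 2071 to 2240 CPM in untreated and 2072 to 2171 CPM in treated Ncf1-/- cells, and 8 of them were lower in untreated Ncf1-/- than in WT, with Mbp at a log2 fold change of -9.78, while Olig1 (0.87) and Olig2 (0.29) were higher. Astrocyte markers summed to 6390 to 11460 CPM in WT against 2622 to 3183 CPM in untreated and 2998 to 4004 CPM in treated Ncf1-/- cells. Gfap, with a WT mean of 5474 CPM, held much of this sum. Of the 6 astrocyte markers, 5 were lower in untreated Ncf1-/- than in WT. Aldh1l1 was not called there (0.65) and averaged 687.6 CPM in WT, 1082 CPM in untreated and 1647 CPM in treated Ncf1-/- cells. Of 8 NSC markers, Nes and Fabp7 were higher and 5 were lower in Ncf1-/-, and their sum was 7882 CPM in WT library 11 against 2396 to 3597 CPM in the other WT libraries. Mesenchymal and endothelial markers summed to 13.6 to 30 CPM in WT, 9.8 to 12.8 CPM in untreated and 22 to 25.2 CPM in treated Ncf1-/- cells. Their members went opposite ways: of 6 tested in untreated Ncf1-/- against WT, 3 were higher and 2 lower. The higher ones were Acta2 (2.55), Col1a1 (1.31) and Col1a2 (1.28), and the lower ones Pdgfrb (-5.36) and Kdr (-1.62). Neuron markers summed to 598 to 771 CPM in WT, 483 to 547 CPM in untreated and 432 to 460 CPM in treated Ncf1-/- cells. Microglial markers summed to at most 2.13 CPM. In bulk RNA, fewer cells of a type and less RNA per cell cannot be told apart, and the part of these cell mixtures in the results below was not tested.

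In WT NSCs, the level per kilobase of transcript placed Fance far above the other genes. Fance, an adaptor between the core complex and FANCD2, stood at 14.8 ± 1.73 CPM per kb (SD, n = 4). This order depends on the estimated lengths. Before division by length Fance averaged 16.45 CPM and Fancm 14.5 CPM in WT, with mean effective lengths of 1112.8 and 7603.5 bases. Fancg followed at 4.85 ± 0.475, Fancc at 4.24 ± 0.421 and Fancl at 2.67 ± 0.347 CPM per kb. Fancf, Fanca, Fancm, Fanci and Fancd2 lay between 2.32 and 1.51 CPM per kb, each overlapping its neighbour in the order, and Fancb was the lowest at 0.431 ± 0.132 CPM per kb. In untreated Ncf1-/- cells the order differed: Fance stood at 15.6 ± 1.57 and Fanci, eighth in WT, came next at 9.23 ± 0.649 CPM per kb. Fanca (6.80), Fancd2 (6.09), Fancc (5.92) and Fancg (5.63) formed an overlapping series below it, and Fancf, Fancm and Fancb overlapped at the bottom with 2.42, 2.30 and 1.89 CPM per kb. After Igfbp2 treatment, Fanca was sixth at 4.20 ± 0.881 CPM per kb and overlapped Fancc above and Fancl below it, while Fance (19.5), Fanci (8.30) and Fancd2 (6.03) led the order.

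The first comparison asked how loss of Ncf1 was associated with expression of the pathway in untreated NSCs. Of the 10 genes, 6 were higher in Ncf1-/- than in WT and none was lower at an adjusted p under 0.05, where 28.9% of all 15706 genes tested were called higher and 28.2% lower. The 6 were both ID complex genes and Fanca, Fancb, Fancc and Fancl of the core complex, and for each of these 6 every Ncf1-/- library lay above every WT library. Of all genes tested, 26.1% separated in this way. The median log2 fold change was 2.31 over the ID complex genes and 0.38 over the core complex genes, against 0.02 over all genes. All of the other 4 genes had log2 fold changes between 0.07 and 0.28 that did not pass the test.

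**Figure D1:**
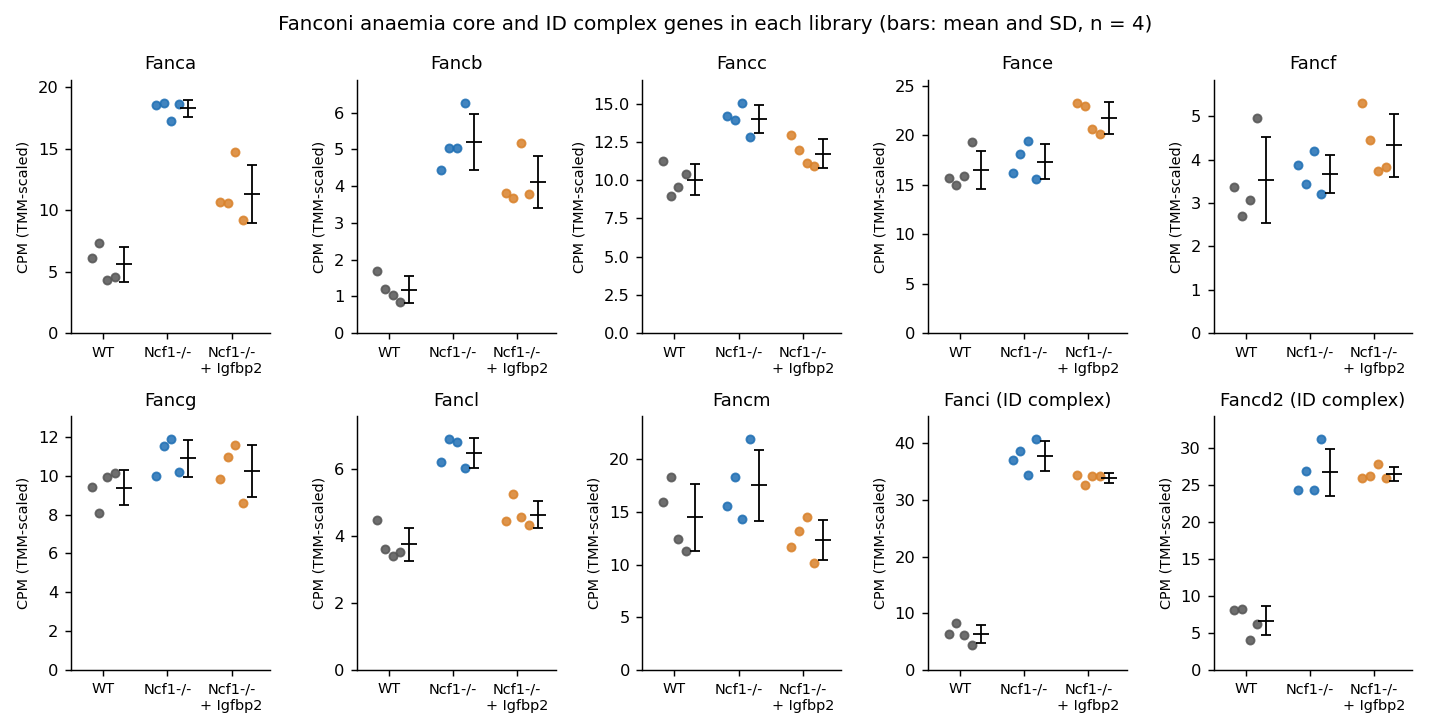
Expression of each gene in CPM scaled by TMM factors (vertical axes, each from 0) in the 4 libraries of each group, ordered by library number within a group. Points are libraries and bars give the mean and SD. Fanci and Fancd2 stand at 4.40 to 8.26 and 4.02 to 8.15 CPM in WT and above 24 CPM in all 8 Ncf1-/- libraries, whereas Fanca is intermediate in the treated libraries.

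Fanci encodes the partner of FANCD2 in the clamp and lies at chr7:79391929-79450264 on the plus strand (GRCm38, GENCODE M21). Its WT libraries 9 to 12 had 6.28, 8.26, 6.05 and 4.40 CPM, and untreated Ncf1-/- libraries 1 to 4 had 37.0, 38.7, 34.4 and 40.7 CPM. The lowest Ncf1-/- library was thus far above the highest WT library. The log2 fold change was 2.59 ± 0.14 (SE), with an adjusted p of 3.81e-08 in edgeR, a 6.04-fold higher level and the largest change among the 10 genes.

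Fancd2, which encodes the main substrate of the ligase, lies at chr6:113531682-113597017 on the plus strand. It had 8.10, 8.15, 4.02 and 6.24 CPM in WT libraries 9 to 12 and 24.4, 26.9, 24.3 and 31.1 CPM in Ncf1-/- libraries 1 to 4. WT library 11 was the lowest of all and Ncf1-/- library 4 the highest, with no overlap between the groups. The log2 fold change was 2.03 ± 0.18 (SE), with an adjusted p of 1.26e-06 in edgeR.

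In the core complex, the catalytic module holds FANCL, the RING-type ligase subunit, with its scaffold FANCB. Fancb, an X-linked gene (chrX:164980592-164997272, plus strand), had 1.68, 1.19, 1.03 and 0.835 CPM in WT libraries 9 to 12 and 4.44, 5.03, 5.03 and 6.27 CPM in Ncf1-/- libraries 1 to 4. These values rest on 15 to 37 counts per WT library and did not overlap between genotypes. The log2 fold change was 2.13 ± 0.22 (SE), with an adjusted p of 3.27e-06 in edgeR, and it was 1.98 without WT library 12, the WT library with high Xist. Fancl (chr11:26386135-26471876, plus strand) had 4.46, 3.62, 3.38 and 3.51 CPM in WT and 6.19, 6.87, 6.80 and 6.01 CPM in Ncf1-/-. All Ncf1-/- libraries were above the highest WT library, and the log2 fold change was 0.79 ± 0.13 (SE), with an adjusted p of 0.000153 in edgeR.

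FANCA and FANCG form a module that is needed for the complex to assemble in the nucleus. Fanca (chr8:123268300-123318576, minus strand) had 6.14, 7.29, 4.33 and 4.57 CPM in WT libraries 9 to 12 and 18.6, 18.7, 17.3 and 18.6 CPM in Ncf1-/- libraries 1 to 4. The 4 knockout libraries were close together and well above WT. The log2 fold change was 1.72 ± 0.17 (SE), with an adjusted p of 3.36e-06 in edgeR, a 3.29-fold higher level. Its partner Fancg (chr4:43002343-43010506, minus strand) had 9.41, 8.10, 9.95 and 10.1 CPM in WT and 10.02, 11.6, 11.9 and 10.2 CPM in Ncf1-/-. The groups overlapped, and the log2 fold change of 0.21 (95% interval -0.04 to 0.47, edgeR adjusted p = 0.137) did not pass the test.

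FANCC, FANCE and FANCF form the substrate recognition module. Fancc (chr13:63285043-63497278, minus strand) had 11.2, 8.96, 9.55 and 10.4 CPM in WT and 14.2, 13.9, 15.1 and 12.8 CPM in Ncf1-/-, without overlap and with a log2 fold change of 0.48 ± 0.10 (SE), with an adjusted p of 0.00106 in edgeR. Fance (chr17:28313519-28326572, plus strand) had 15.7, 14.9, 15.9 and 19.3 CPM in WT and 16.2, 18.1, 19.4 and 15.6 CPM in Ncf1-/-. The genotypes overlapped for Fance, with a log2 fold change of 0.07 (95% interval -0.15 to 0.30, edgeR adjusted p = 0.561). Fancf (chr7:51860577-51862267, minus strand) had 3.37, 2.70, 3.07 and 4.96 CPM in WT and 3.88, 3.44, 4.19 and 3.21 CPM in Ncf1-/-. WT library 12 was the highest of these, and the log2 fold change was 0.07 (95% interval -0.36 to 0.49, edgeR adjusted p = 0.785). The intervals of Fance and Fancf exclude a change of the size found for Fanca, Fancb, Fanci or Fancd2.

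FANCM is a DNA translocase that anchors the complex on DNA. Fancm (chr12:65075603-65132058, plus strand) had 15.9, 18.3, 12.5 and 11.3 CPM in WT and 15.6, 18.3, 14.3 and 21.9 CPM in Ncf1-/-. The groups overlapped widely, with a log2 fold change of 0.28 (95% interval -0.10 to 0.65, edgeR adjusted p = 0.19). The 6 genes called were called without each of the 12 libraries in turn, including WT libraries 11 and 12 (log2 fold changes without them 0.45 to 2.58 and 0.46 to 2.44).

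**Figure D2:**
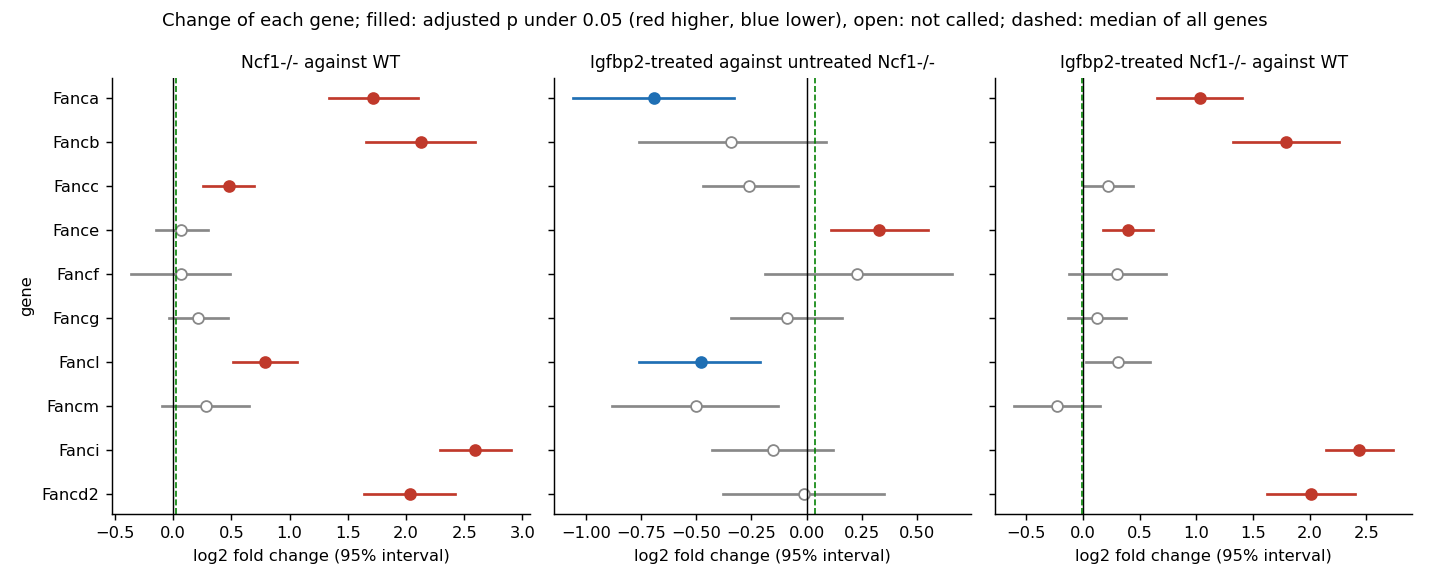
Log2 fold change of each gene (points) with its 95% interval (lines) in the 3 comparisons, from edgeR. Filled points passed an adjusted p of 0.05, red for higher and blue for lower, and the dashed line is the median of all genes. Fanca is higher in both comparisons with WT and lower after treatment, while the intervals of Fanci and Fancd2 after treatment span 0.

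The promoters of the members were searched for letters known to bind E2F, NF-Y and cell cycle factors (the E2F-type core, CCAAT box and CHR) and for the GC box, which binds broadly expressed factors such as Sp1. The RefSeq promoter table (GRCm38.p6, 250 bases before to 50 bases after a gene start) held 9 of the 10 genes, without Fancd2. Its gene starts lie downstream of the GENCODE starts used for the coordinates above by 65533 bases for Fancc, 949 for Fancl, 409 for Fanci, 205 for Fancg and 11 for Fance, and coincide with them for the other 4, so the windows describe the RefSeq starts only. On either strand, an E2F-type core (TTCCCGC or TTGGCGC) was found in 5 of the 9, namely Fancb, Fancf, Fancg, Fancm and Fanci, against 6.81% of all 32851 promoters in the table. The CCAAT box (CCAAT) was found in Fanca, Fancb, Fancc, Fance, Fancf and Fancm, 6 of 9 against 37.4% of all promoters, and in Fancf one copy overlaps the E2F-type letters. The GC box (GGGCGG) was found in 6 of 9 against 35.7%. The CHR letters TTTGAA were in none of the 9 windows, against 17.9% of all. The E2F-type letters were in 2 genes that were higher in Ncf1-/- (Fancb and Fanci) and in 3 that were not called (Fancf, Fancg and Fancm). Fanca, Fancc and Fancl, which were higher, and Fance, which was not called, had none in their windows, and Fancd2 had no window. Whether these letters bear on the changes was not tested. A match describes letters only. The windows of the 3 genes with promoters that differed most between genotypes and of Fancg, which holds the E2F-type letters and was not called, are printed 5′ to 3′ on the gene's strand with the E2F-type letters and CCAAT boxes in capitals. They are chr7:79392088-79392387 (plus strand), chrX:164980342-164980641 (plus strand), chr8:123318527-123318826 (minus strand) and chr4:43010252-43010551 (minus strand).
Fanci: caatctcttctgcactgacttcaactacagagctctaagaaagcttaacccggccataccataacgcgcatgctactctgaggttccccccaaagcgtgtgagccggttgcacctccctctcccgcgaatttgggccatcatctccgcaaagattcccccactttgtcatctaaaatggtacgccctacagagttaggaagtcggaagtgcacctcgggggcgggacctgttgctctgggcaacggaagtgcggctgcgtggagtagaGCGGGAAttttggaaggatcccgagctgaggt
Fancb: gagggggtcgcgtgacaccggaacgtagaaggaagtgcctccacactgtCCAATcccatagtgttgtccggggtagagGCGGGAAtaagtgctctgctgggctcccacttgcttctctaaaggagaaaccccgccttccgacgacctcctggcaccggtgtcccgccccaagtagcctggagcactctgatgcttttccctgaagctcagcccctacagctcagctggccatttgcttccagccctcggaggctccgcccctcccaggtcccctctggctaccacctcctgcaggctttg
Fanca: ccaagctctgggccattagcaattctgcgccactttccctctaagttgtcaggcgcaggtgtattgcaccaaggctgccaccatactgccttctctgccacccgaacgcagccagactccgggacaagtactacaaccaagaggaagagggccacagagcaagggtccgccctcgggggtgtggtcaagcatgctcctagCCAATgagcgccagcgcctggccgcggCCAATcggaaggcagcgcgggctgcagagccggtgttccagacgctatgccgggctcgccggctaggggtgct
Fancg: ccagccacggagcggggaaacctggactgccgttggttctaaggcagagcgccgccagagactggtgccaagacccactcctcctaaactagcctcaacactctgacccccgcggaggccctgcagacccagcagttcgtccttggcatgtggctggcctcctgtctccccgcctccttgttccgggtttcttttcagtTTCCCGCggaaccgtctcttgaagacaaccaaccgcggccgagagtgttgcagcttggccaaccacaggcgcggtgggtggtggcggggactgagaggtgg
In Fanci the E2F-type letters start 19 bases into the transcript, in Fancb they start at -172 and in Fancg at -51 relative to the RefSeq gene start. The CCAAT boxes of Fanca start at -50 and -23.

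Exons of 8 of the 10 genes (all but Fancb and Fancg) overlap exons of a gene on the opposite strand, and whether the counting used strand is not given in the sources used here. The overlap was 921 bases between Fanci and Polg, 920 between Fanca and Zfp276, 462 between Fancl and Vrk2, 253 between Fancf and Gas2 and 257 between Fancd2 and Fancd2os. Polg, with 1820.5 to 3663.2 counts, had a log2 fold change of 0.28 in Ncf1-/- against WT. Zfp276 moved the opposite way to Fanca there (-0.99, edgeR adjusted p = 2.61e-05) and the same way after treatment (-0.68, edgeR adjusted p = 0.00417). Vrk2 was higher in Ncf1-/- (1.24), as Fancl was. Fancd2os had at most 5.2 counts. How far reads of these partners entered the values of the members was not tested.

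The second comparison asked what Igfbp2 was associated with in Ncf1-/- cells. Of the 10 genes, Fanca and Fancl fell and Fance rose, where 10.7% of all genes tested were called lower and 14.2% higher. With 2 of 10 lower and 1 of 10 higher, the shares were near those of all genes or above them by a single gene. The study's methods pair each treated culture with an untreated culture of the same animal, although Y-linked transcripts differed within every pair. With these pairs as a block, in a fit without WT, 4 of the 10 were lower (Fanca, Fancc, Fancl and Fancm) and Fance was higher. In that fit 17.0% of all genes were lower and 19.0% higher. A fit of only the groups compared, without pairs, called Fanca, Fancc, Fancl, Fancm and Fanci lower, where 18.3% of all genes were lower. In the fit over all 3 groups, the median log2 fold change was -0.20 over the 10 genes, -0.30 over the core complex genes and -0.08 over the ID complex genes, against 0.04 over all genes. 

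Fanca had 10.7, 10.6, 14.7 and 9.18 CPM in treated libraries 5 to 8, against 17.3 to 18.7 CPM in untreated Ncf1-/- libraries. Library 7 was the highest of the treated libraries and still below every untreated one. The log2 fold change was -0.69 ± 0.17 (SE), with an adjusted p of 0.011 in edgeR, to 0.618 of the untreated level. Fanca was also lower, at an adjusted p between 0.00088 and 0.0346, under each of 21 alternative settings. Fancl had 4.43, 5.23, 4.54 and 4.32 CPM after treatment against 6.01 to 6.87 CPM before, again without overlap. Its log2 fold change was -0.48 ± 0.13 (SE), with an adjusted p of 0.0166 in edgeR, and without Ncf1-/- library 2 the adjusted p was 0.054.

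Fance had 23.3, 23.0, 20.6 and 20.1 CPM after treatment against 15.6 to 19.4 CPM in untreated Ncf1-/- cells. All treated libraries were above the untreated ones, with a log2 fold change of 0.33 ± 0.10 (SE), with an adjusted p of 0.0343 in edgeR. This call depended on the scaling, since the log2 fold change was 0.05 with library totals and -0.20 in limma on log2(TPM + 1), where TPM is a length-scaled abundance. It was also lost without each of 8 libraries in turn: untreated Ncf1-/- libraries 1, 2 and 4, all 4 treated libraries and WT library 10. Over all 21 alternatives, 7 gave the same call for Fance, 11 a weaker result and 3 the reversed direction.

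Of the genes that did not pass, Fancm had 11.6, 13.2, 14.5 and 10.1 CPM after treatment, overlapping the untreated range of 14.3 to 21.9 CPM. Its log2 fold change of -0.50 (95% interval -0.88 to -0.13) had an edgeR adjusted p of 0.0511, and it was called lower under 12 of 21 alternatives. Fancc had 12.96, 11.96, 11.1 and 10.9 CPM (log2 fold change -0.26, edgeR adjusted p = 0.0755), with library 5 just above the lowest untreated library, and was called lower under 10 of 21 alternatives. Fancb had 3.82, 3.67, 5.16 and 3.78 CPM (log2 fold change -0.34, 95% interval -0.76 to 0.09), overlapping the untreated range through library 7. Fancg had 9.86, 11, 11.6 and 8.59 CPM, a log2 fold change of -0.09 (95% interval -0.34 to 0.16), and Fancf had 5.32, 4.45, 3.73 and 3.83 CPM, a log2 fold change of 0.23 (95% interval -0.19 to 0.66). Both overlapped the untreated libraries.

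Neither ID complex gene was called after treatment in the fit over all 3 groups, and Fanci was called lower under 4 of 21 alternatives. Fanci had 34.5, 32.7, 34.3 and 34.2 CPM in treated libraries 5 to 8, with library 5 inside the untreated range of 34.4 to 40.7 CPM and the other 3 below it. Its log2 fold change was -0.15 with a 95% interval of -0.43 to 0.12 (edgeR adjusted p = 0.396). Fancd2 had 25.9, 26.2, 27.8 and 25.9 CPM, within the untreated range of 24.3 to 31.1 CPM. Its log2 fold change was -0.01 with a 95% interval of -0.38 to 0.35 (edgeR adjusted p = 0.964). With TMM factors, the interval of both genes excludes a fall as large as the log2 difference of -0.69 estimated for Fanca. The difference between the genes was not tested. Over the 21 alternatives the lowest log2 fold changes were -0.63 for Fanci, -0.69 for Fancd2 and -1.21 for Fanca.

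Scaling moved the level of all genes in this comparison, and the changes are therefore also given relative to it. The median log2 fold change of all genes was 0.04 with TMM factors, -0.23 with library totals and -0.43 between group means of TPM. The median of the 10 genes was -0.20, -0.48 and -0.70 on these scales. With library totals 6 of the 10 genes were called lower and none higher, where 33.5% of all genes were called lower. In limma on log2(TPM + 1) 8 of the 10 were called lower, Fanci and Fancd2 among them, where 39.2% of all genes were called lower.

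**Figure D3:**
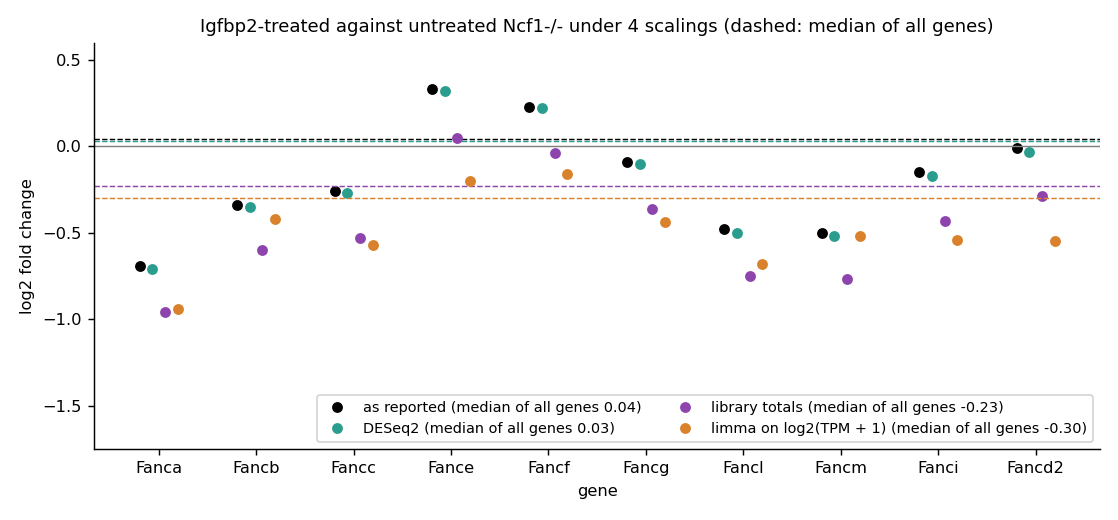
Log2 fold change of each gene (vertical axis) after Igfbp2 treatment under 4 scalings (colours), with the median of all genes under each as a dashed line. The points of a gene shift down together with the median of all genes, from 0.04 to -0.30. Fanca lies below the median of all genes in each of them and Fance above it.

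Ratios between genes within a library do not depend on that scaling. Counts of the 8 core genes divided by counts of the 2 ID genes gave 4.72, 3.97, 5.93 and 6.11 in WT libraries 9 to 12, 1.45, 1.46, 1.60 and 1.32 in untreated and 1.36, 1.41, 1.38 and 1.18 in treated Ncf1-/- libraries. The ratio was 5.18 ± 1.02 (SD, n = 4) in WT, 1.46 ± 0.115 in untreated and 1.33 ± 0.104 in treated cells, so both Ncf1-/- groups lay apart from WT and overlapped each other. The ratio of Fanca to Fancd2 counts, chosen after its values were seen and given with no test, was 0.762, 0.695, 0.710 and 0.596 in untreated and 0.412, 0.404, 0.527 and 0.355 in treated Ncf1-/- libraries. In WT it was 0.758, 0.894, 1.08 and 0.732, overlapping untreated Ncf1-/- and above every treated library.

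**Figure D4:**
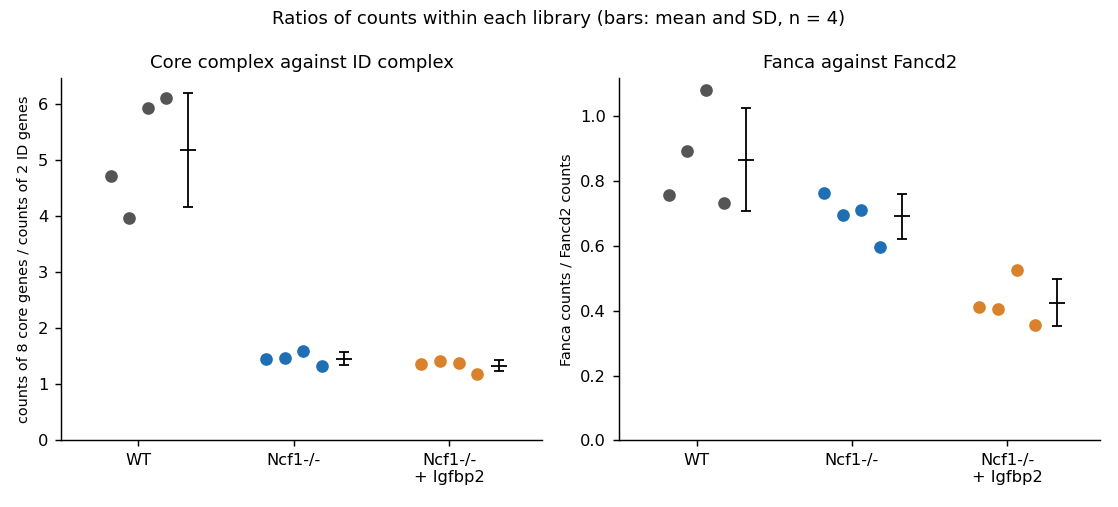
Ratio of counts within each library (vertical axes, from 0) for the core complex genes against the ID complex genes (left) and for Fanca against Fancd2 (right), with the mean and SD of 4 libraries. The left ratio lies between 3.97 and 6.11 in WT and between 1.18 and 1.60 in Ncf1-/- cells. The right ratio is lowest in the treated libraries.

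The third comparison set treated Ncf1-/- cells against WT. It shares its libraries with the comparisons above, so its values are not independent of them. Of the 10 genes, 5 were higher than in WT and none was lower, where 31.6% of all genes were called higher and 30.8% lower. Fanci had a log2 fold change of 2.44 ± 0.14 (SE), with an adjusted p of 4.32e-08 in edgeR, Fancd2 of 2.01 (adjusted p = 1.28e-06), Fancb of 1.79 (adjusted p = 1.41e-05), Fanca of 1.03 (adjusted p = 0.00023) and Fance of 0.40 (adjusted p = 0.00417). Fanca in treated cells was thus above WT on this scale, at 9.18 to 14.7 against 4.33 to 7.29 CPM. On TPM, this difference for Fanca did not pass the test (limma on log2(TPM + 1) 0.28, adjusted p = 0.137), and the difference for Fance turned to -0.14. In the analysis of variance with Tukey's post hoc test on TPM, Fancb was not called either (1.39, adjusted p = 0.168). Fancl (0.31, 95% interval 0.03 to 0.59, adjusted p = 0.0539) and Fancc (0.22, 95% interval 0.01 to 0.44, adjusted p = 0.067) missed the threshold, and Fancf (0.30), Fancg (0.12) and Fancm (-0.23) did not pass it either. Without WT library 9, Fancc and Fancl were called as well, which makes 7. Without WT library 12, Fancf was called higher in addition to the 5 (log2 fold change 0.43).

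In edgeR, Fancl alone was higher in untreated Ncf1-/- than in WT, fell after treatment and was not called against WT after treatment, 1 of 10 where 2.15% of all genes did so. Without Ncf1-/- library 2 or WT library 9 it no longer met all of these. Fancc and Fancl met them with only the groups compared and without treated library 5, WT library 10 or WT library 12, and Fancc alone did among genes averaging at least 5 CPM, which leaves out Fancl. Fancc, Fancl and Fancm met them with library totals, and Fanca, Fancc and Fancl in limma on log2(TPM + 1) and in the analysis of variance with Tukey's post hoc test on TPM. Of all genes, 3.48% met them with only the groups compared, 8.78% with library totals, 7.97% in limma and 2.03% in the analysis of variance.

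Other genes of the pathway were described from lists of known members, whose counts stand against the shares of all genes given above and here. In untreated Ncf1-/- against WT, 38.4% of all genes were called higher and 20.1% lower with library totals. In limma on log2(TPM + 1) these shares were 23.9% and 18.5%, and in DESeq2 28.7% and 29%. In treated cells against WT, 34.9% of all genes were called lower and 26.7% higher with library totals, and 43.9% lower and 12.5% higher in limma on log2(TPM + 1), where the median of all genes was -0.25. Homologous recombination genes of the pathway were all higher in untreated Ncf1-/- than in WT, 10 of 10 with a median log2 fold change of 1.28 in edgeR, and 9 of 10 with a median of 0.84 in limma on log2(TPM + 1). Among them were Brip1, a helicase that binds BRCA1 (1.98, edgeR adjusted p = 1.41e-06), and Rbbp8, which starts end resection (1.19, adjusted p = 1.53e-06). After treatment none of the 10 was called by edgeR or DESeq2, with a median of -0.08, 2 had an unadjusted p under 0.05 in edgeR, and 5 were called lower with library totals and 6 in limma on log2(TPM + 1). Against WT, all 10 were higher in treated cells in edgeR with a median of 1.11, whereas in limma on log2(TPM + 1) 5 were higher, 1 was lower and the median was 0.47.

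Of the 6 genes in a list that joins accessory proteins of the core complex with its E2 enzyme, 4 were higher in Ncf1-/- and none was lower. Ube2t, the E2 that works with FANCL, had a log2 fold change of 1.89 (edgeR adjusted p = 1.99e-06), Cenps (also called Mhf1, a partner of FANCM) of 1.16 (adjusted p = 6.26e-05) and Cenpx of 0.55 (adjusted p = 0.000896). After treatment Cenps fell (-0.54, adjusted p = 0.0309) and Faap100, which binds FANCB and FANCL, rose (0.34, adjusted p = 0.0191), but Faap100 was at 0.07 with library totals and -0.16 in limma on log2(TPM + 1). Against WT, treated cells had 5 of the 6 higher in edgeR, 3 with library totals, and 2 higher and 1 lower in limma on log2(TPM + 1). Usp1, which removes ubiquitin from FANCD2, was higher in Ncf1-/- (1.20, adjusted p = 7.27e-05), whereas its cofactor Wdr48 was not called. After treatment neither of these genes was called by edgeR or DESeq2. Both were called lower with library totals and in limma on log2(TPM + 1), where 33.5% and 39.2% of all genes were. Treated cells had Usp1 above WT (0.87, adjusted p = 0.000831, not called in limma on log2(TPM + 1)) and Wdr48 below it (-0.22, adjusted p = 0.0259).

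Of 9 downstream nucleases and scaffolds, 3 were higher and 1 was lower in untreated Ncf1-/- than in WT, with a median of 0.09, where 28.9% of all genes were called higher. With library totals 5 were higher, with a median of 0.27, where 38.4% of all genes were called higher and their median was 0.19. In limma on log2(TPM + 1) 2 were higher, where 23.9% of all genes were. Eme1, the partner of the Mus81 nuclease, was higher in Ncf1-/- (1.80, edgeR adjusted p = 3.89e-05), as was Mus81 (0.46, adjusted p = 0.00702), and Ercc4, which encodes the XPF nuclease, was lower (-0.55, adjusted p = 2.26e-05). After treatment Slx1b, a nuclease subunit held by SLX4, was lower (-0.48, adjusted p = 0.00885). With library totals 6 of the 9 genes were called lower and in limma on log2(TPM + 1) 7, where 33.5% and 39.2% of all genes were. Against WT, treated cells had Eme1 higher (1.38, adjusted p = 0.000342) and Ercc4 (-0.44, adjusted p = 0.000127) and Fan1 (-0.36, adjusted p = 0.0136) lower, and 4 of the 9 were lower with library totals and 6 in limma on log2(TPM + 1).

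Of 7 translesion synthesis genes, 6 were higher in untreated Ncf1-/- than in WT, including Polh (1.08, edgeR adjusted p = 1.29e-05), Rad18, the ligase that ubiquitinates PCNA (1.54, adjusted p = 2.49e-05), and Poln (1.52, adjusted p = 0.00201). The count was 5 in DESeq2 and 4 in limma on log2(TPM + 1), where the median was 0.46 against 0.81 in edgeR. Of all genes, 28.7% were called higher in DESeq2 and 23.9% in limma. After treatment the list split. Polh (0.49, adjusted p = 0.0141) and Polk (0.32, adjusted p = 0.031) rose, and Rev3l (-0.68, adjusted p = 0.0345) and Rev1 (-0.19, adjusted p = 0.0484) fell. With library totals Polh was at 0.22 and Polk at 0.05, neither called, and in limma on log2(TPM + 1) they were at 0.02 and -0.10, whereas Rev3l and Rev1 were called lower on both scales. Against WT, 4 of the 7 were higher in treated cells and none was lower in edgeR, Polh (1.57, adjusted p = 6.76e-07), Rad18 (1.39, adjusted p = 5.87e-05) and Polk (0.57, adjusted p = 0.00026) with the lowest p-values. In limma on log2(TPM + 1) 3 were higher and 2 lower, with a median of 0.09 against 0.57 in edgeR.

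The BLM dissolvasome, which untangles joined DNA molecules, was higher for 4 of 4 genes in Ncf1-/- with a median of 1.03, led by Blm (1.58, edgeR adjusted p = 6.25e-06), Rmi2 (1.43, adjusted p = 0.000215) and Rmi1 (0.62, adjusted p = 0.000399). In limma on log2(TPM + 1) 3 of the 4 were called, with a median of 0.63, where 23.9% of all genes were called higher. Of 6 ATR checkpoint genes, 4 were higher (3 in limma on log2(TPM + 1)), with Topbp1 (1.27, adjusted p = 6.26e-06), Chek1 (1.83, adjusted p = 1.24e-05) and Clspn (1.52, adjusted p = 0.000104) having the lowest p-values. No gene of either list was called after treatment by edgeR, where 1 of each had an unadjusted p under 0.05. DESeq2 called 1 dissolvasome gene and no checkpoint gene. With library totals 3 of 4 and 4 of 6 were called lower, where 33.5% of all genes were. In limma on log2(TPM + 1) 4 of 4 and 4 of 6 were called lower, where 39.2% of all genes were. Against WT, treated cells had 4 of 4 dissolvasome genes and 3 of 6 checkpoint genes higher, Chek1 (1.70, adjusted p = 2.20e-05), Clspn (1.60, adjusted p = 6.96e-05) and Topbp1 (0.91, adjusted p = 8.33e-05). Of the 4 dissolvasome genes, 3 were higher than in WT in DESeq2, 2 with library totals and 2 in limma on log2(TPM + 1), where 2 checkpoint genes were higher.

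General DNA replication genes were higher as well. All 25 genes of a replication list, which holds the MCM helicase, GINS and replicative polymerase genes, were higher in untreated Ncf1-/- than in WT, with a median log2 fold change of 1.53 and a range of 0.69 to 2.48. Their summed level was 490 to 812 CPM in WT and 1817 to 2259 CPM in untreated Ncf1-/- libraries. The change of Fanci (2.59) lies above that range, Fancd2 (2.03), Fancb (2.13), Fanca (1.72) and Fancl (0.79) lie inside it, and Fancc (0.48), Fancg, Fance, Fancf and Fancm lie below it. After treatment 2 of the 25 fell, with a median of -0.12 (9 were called lower with library totals and 13 in limma on log2(TPM + 1)), and all 25 were above WT in edgeR, against 24 in DESeq2 and with library totals and 21 in limma on log2(TPM + 1). The part of replicating cells in the changes of the 10 genes was not tested.

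**Figure D5:**
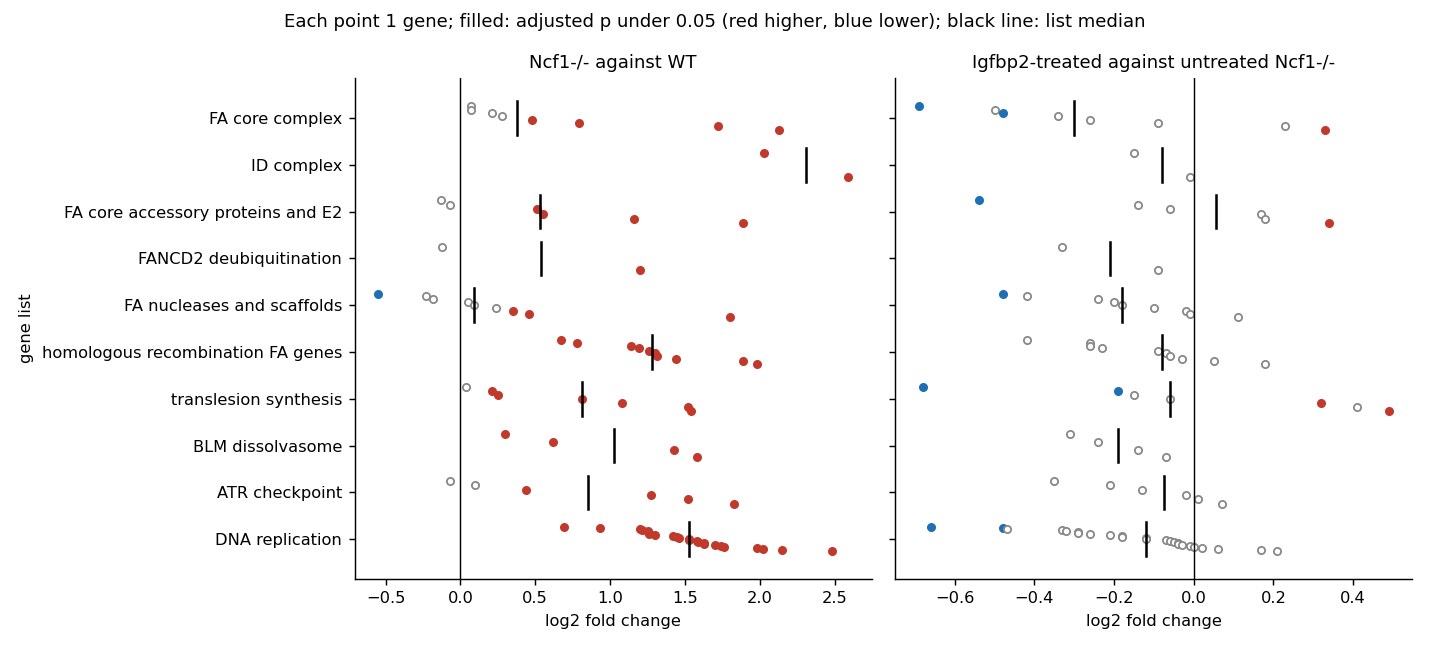
Log2 fold change (horizontal axes) of each gene (points) in lists of the Fanconi anaemia pathway and of DNA replication, for untreated Ncf1-/- against WT (left) and for Igfbp2-treated against untreated Ncf1-/- (right). Filled points passed an adjusted p of 0.05, red for higher and blue for lower, and black lines are list medians. In the left panel the 10 homologous recombination genes and the 25 replication genes all lie above 0, and in the right panel the list medians lie between -0.30 and 0.05.

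The genes whose levels were most like those of Fanca and Fancd2 over the 12 libraries were named by Pearson's r of log2 CPM among the 11172 genes that averaged 5 CPM or more. The libraries form 3 groups, so r describes mostly the differences between groups. For Fanca they were Neil3 (0.992), Cdc7 (0.987), Wdr62 (0.985), Ankle1 (0.978) and Ddx39 (0.978). For Fancd2 they were Rrm2 (0.994), Ddias (0.994), Uhrf1 (0.993), Ercc6l (0.992) and Hjurp (0.992).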

How the data were processed

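RNA of 12 cultures was depleted of ribosomal RNA and sequenced as total RNA. Per the submitters' processing notes the authors used Bowtie2 and RSEM with GRCm38. The deposited values were expected counts, which the authors estimated per gene with RSEM, and TPM, which the authors scaled to the same total in each library. The authors also gave FPKM, not used here, and a merged table that was used for gene symbols. Its score values, made by the authors, were whole multiples of TPM within 0.05 for all 146348 values with a TPM of at least 1. Expected counts were rounded to whole numbers. Genes were kept by edgeR's filterByExpr (15706 of 45792 genes, holding 99.9% of counts), scaled by TMM factors and tested in 1 fit over the 3 groups with the two-sided quasi-likelihood test of edgeR 4.0.16 (R 4.3.3). P-values were adjusted by Benjamini-Hochberg over all genes, with calls made at adjusted p below 0.05. Alternatives used DESeq2 1.42.0, limma 3.58.1 on TPM and the study's analysis of variance with Tukey's post hoc test on TPM. CPM was scaled by TMM factors, and CPM per kb was divided by the mean effective length of a gene.

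On simulated data with 200 of 15513 genes changed, the test recovered 200 with 21 false calls for Ncf1-/- against WT. For treated against untreated Ncf1-/- it recovered 200 with 13 false calls. Recovery was not tested by size of change, nor with as many genes changed as were called here, 8978 and 3923. The genes described and the lists were chosen with earlier results of these data known. The genes named were the 10 members, of each pathway list the 3 called genes with the lowest adjusted p and any called against the list's direction, and the 5 genes most like Fanca and Fancd2. A gene that this rule names is not reported here. Depth was 18201622 to 34086554 expected counts, and log2 fold changes had a median SE of 0.141. The study's methods describe the libraries of a group as NSCs of separate pups, which the labels do not give. Treated and untreated Ncf1-/- cultures of the same animal are paired in the study's methods and sample sheet, not in the labels, and deviations from the group means correlated by -0.11 to 0.10 within the 4 pairs, so the pairing was kept as an alternative (replicate block). No 2 libraries of a group agreed within sampling noise.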

Additional observations from a re-analysis of the deposited data

Results flagged for a closer look

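Levels of the 10 genes in the 3 groups were checked for a library far from the other 3 of its group, and 3 of 30 groups of values had one; chance alone marks about 1 in 20. Fanca stood at 17.3 CPM in untreated Ncf1-/- library 3, below the 18.6 to 18.7 CPM of the others. Treated Ncf1-/- library 7 was marked for both of the remaining values. In it Fancb stood at 5.16 CPM, against 3.67 to 3.82 in the others, and Fancd2 at 27.8 CPM, against 25.9 to 26.2. The cause was not tested.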

How the results depend on the processing

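The count of members higher in Ncf1-/- than in WT was 6, between 4 and 8 under all alternatives and 6 without any single library. Each of the 6 was called under every alternative that tested it, and the filter at a mean of 5 CPM left out Fancb and Fancl. Fancg and Fancm were each called under 1 alternative. Of all genes, 28.9% were called higher, 38.4% with library totals, 33% with that filter and 8.15% in the study's analysis of variance on TPM. After treatment 3 members were called, against 6 with library totals, 6 with only the groups compared (where 5709 of all genes were called, against 3923), 8 and 8 in limma on log2(TPM + 1) and log2(TPM + 0.1), and 1 to 5 with 1 library left out, lowest without Ncf1-/- library 2 and highest without WT library 12. With the culture pairs of the study's sample sheet as a replicate block, 5 members and 5434 of all genes were called, Fanca among them (-0.76, adjusted p = 0.00345). In treated cells against WT 5 members were called, against 2 in the analysis of variance of the study's methods on TPM, 3 and 3 in limma, and 5 to 7 with 1 library left out.

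Directions turned for members that were not called, and for Fance. After treatment, Fance was -0.19 in that analysis of variance, -0.20 and -0.22 in limma, and Fancf -0.24, -0.16 and -0.24 there and -0.04 with library totals. Treated against WT, in the same order of the 3 TPM tests, Fancc was -0.09, -0.07 and -0.09, Fance -0.12, -0.14 and -0.15, Fancf -0.15, -0.08 and -0.11, and Fancg -0.23, -0.20 and -0.26. With 1 library left out, Ncf1-/- against WT ranged from -0.01 to 0.12 for Fance and from -0.05 to 0.24 for Fancf, turning without Ncf1-/- library 3 (Fancf -0.02) or WT library 10. Fancd2 ranged from -0.10 to 0.09 after treatment, turning without Ncf1-/- library 4, and Fancg from -0.01 to 0.20 in treated cells against WT, turning without treated library 7. All genes called after treatment numbered 3923, against 5906 with library totals, 2149 in that analysis of variance, and 6354 and 6519 in limma, and the share of calls that were lower was 43.0%, 89.0%, 97.0%, 96.9% and 97.5%. Those 3923 were 25% of the genes tested. With 1 library left out the share ranged from 14.4% (without Ncf1-/- library 2) to 30.6% (without WT library 11). In Ncf1-/- against WT 8978 genes were called, against 4329 in that analysis of variance, and the share lower was 49.4% but 34.4% with library totals. In treated cells against WT 9801 were called, against 5592 in that analysis of variance, and the share lower was 49.4%, but 82.7% in that test and 77.8% and 77.5% in limma. The cause was not tested. Depth limits Fancb most, at 15 to 37 counts in WT.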
